A study of Mus musculus with 2 samples.

Results

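Secreted inhibitors of WNT signalling were measured in urogenital ridges of mouse embryos, which hold the Müllerian and Wolffian ducts and the mesenchyme around them. The set consists of 10 genes, Wif1, Sfrp1, Sfrp2, Sfrp4, Frzb, Dkk1, Dkk2, Dkk3, Kremen1 and Sostdc1, out of 18193 genes that the platform annotation names by a probe set of their own. All probe sets annotated to 1 of these genes alone were used, which gave 20 of 45037 probe sets, and no probe set was annotated to a member together with another gene. Kremen1 differs from the rest in that it encodes a membrane protein that works with the secreted DKK proteins.

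Ridges were taken at E14.5 from mice on a mixed C57Bl/6 and 129SVEV background, without their gonads, and their genotype was scored through a YFP reporter. About 100 heterozygous ridges (Misr2+/-) made up the heterozygous pool and about 100 ridges of genotype Misr2-/- the homozygous pool, and each pool was hybridised to 1 Affymetrix array. Misr2, annotated as Amhr2, is the gene of the type II receptor through which Müllerian inhibiting substance, a hormone of the fetal testis, causes regression of the Müllerian duct in males. Both pools thus carry at least 1 deleted allele, no wild-type pool was analysed here, and the labels call the heterozygous ridges responsive to the hormone and the homozygous ridges unresponsive. The comparison therefore addresses which transcripts differ between a pool with the receptor gene and a pool without it. Genotype cannot be told apart from pool, dissection or array here. A difference between the pools is thus not by itself dependence on the receptor. With 1 array per pool there is no replicate error, and no test between genotypes was possible.

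WNT ligands act by binding Frizzled receptors together with the co-receptors LRP5 and LRP6, which stabilises beta-catenin in the receiving cell. Secreted inhibitors act outside the cell at different steps. WIF1 and the secreted frizzled-related proteins (the SFRP genes and Frzb) bind WNT ligands, whereas DKK1, DKK2 and sclerostin-domain proteins such as SOSTDC1 bind the LRP co-receptors. WNT signalling is needed for the Müllerian duct to form and has been studied in its regression.

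The median signal of each array, controls left out, served as its floor, and it was 116.5 for the heterozygous and 139.4 for the homozygous pool. Probe sets with a signal at or above the floor in 1 pool or both are called measured. A signal under the floor was raised to it, which makes the fold a lower bound, written with the words at least. Differences are log2 values of the homozygous minus the heterozygous pool relative to the shift of 0.26 between the array medians. A gene was represented by its probe set of highest mean signal, and all 10 members were measured in this way. Of their 20 probe sets 16 were measured and 4 reached the floor in neither pool. Over the 5264 genes with 2 or more measured probe sets, the differences of a gene's 2 brightest ones scattered with an SD of 0.23 on the log2 scale. It is the SD of the gap between the 2, divided by the square root of 2. For the 1316 genes of lowest signal it was 0.26. This scatter is between probe sets on the same arrays, and holds no variation between pools, dissections or arrays.

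The targeted gene followed the genotype labels. The brightest Amhr2 probe set went from 1549.6 (heterozygous) to 10.2 (homozygous), and all 3 of its probe sets were under the floor in the homozygous pool. All 11 duct epithelium markers that had a probe set and all 10 markers of ridge mesenchyme were measured, where 11432 of 18193 genes were. The same held for all 6 germ cell, 5 endothelium and 7 macrophage markers with a probe set, so being measured does not single out the labelled tissue. Metanephric kidney and skeletal muscle markers were mostly under the floor, with 1 of 6 measured for each.

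Wif1 was the member past 2-fold, and it was lower in the homozygous pool. Relative to the median shift the values of the other 9 members were within 1.5-fold, where 0.883% of all measured genes were at least 1.5-fold lower and 2.08% at least 1.5-fold higher. For Dkk1 this value is a lower bound, and other scalings of the arrays, given further on, put some of the 9 past 1.5-fold. Of the 10 members 1 was at least 2-fold lower, where 0.219% of all measured genes were, and 0 were at least 2-fold higher, where 0.236% were. The set was chosen with earlier results of these data known, so these shares are given for scale only. The members had a median difference of 0.01, with 5 above and 5 below 0, beside a median of 0.04 over all measured genes, of which 57.7% were above and 42.3% below 0.

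**Figure D1:**
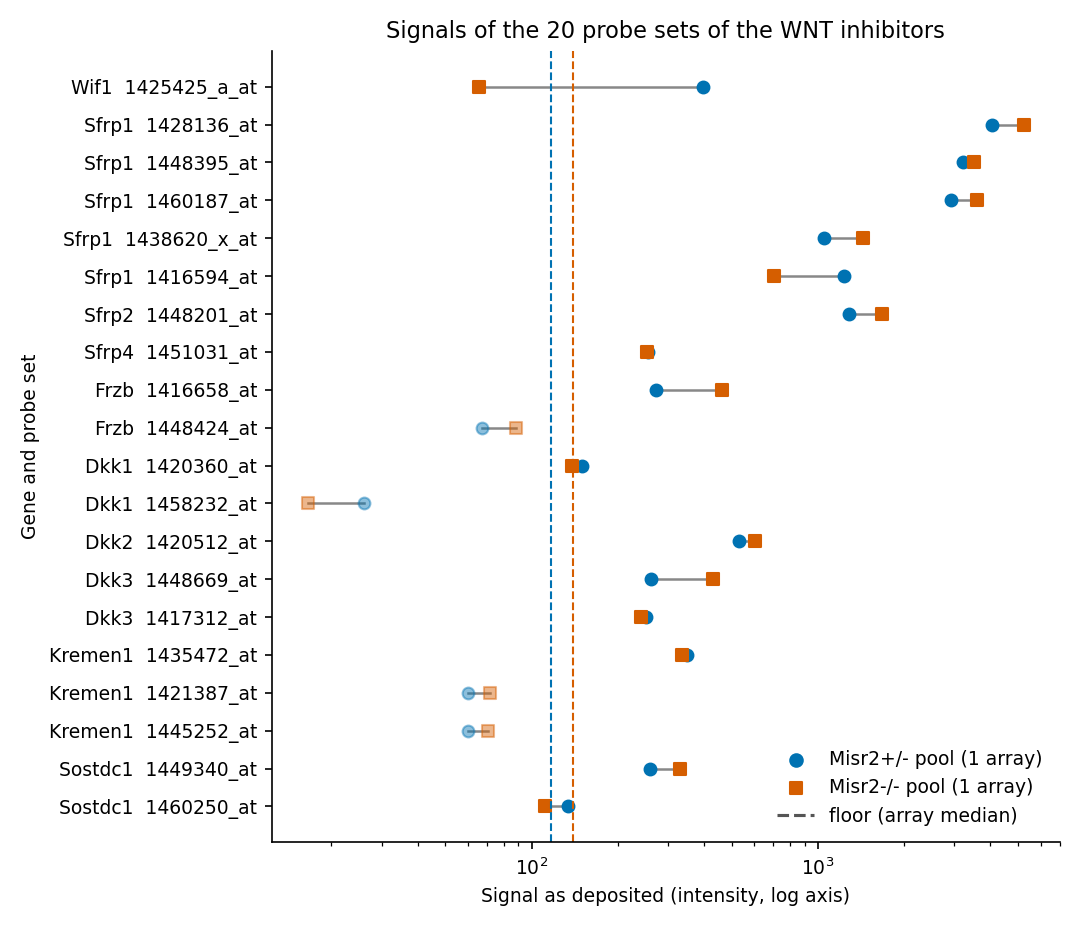
Signals as deposited (log axis) of the 20 probe sets in the Misr2+/- pool (blue circles) and the Misr2-/- pool (orange squares), 1 array each, with the floor of each array as a dashed line and pale symbols for probe sets that reach neither floor. Wif1 crosses from 397.8 to 65.4, and 1 of the 5 Sfrp1 probe sets runs against the other 4.

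Wif1, on chromosome 10, encodes a secreted protein that binds WNT ligands through its WIF domain. Its probe set, 1425425_a_at, gave 397.8 in the heterozygous pool and 65.4 in the homozygous one. The first is 3.41 times its array's floor, and the second lies under the floor, at 0.469 times its height. Wif1 was thus at least 3.41-fold lower in the homozygous pool, a log2 difference of -1.77 or lower. Taken at face value, without the floor, the same signals gave a difference of -2.86, or 7.28-fold. The authors' deposited table lists this probe set at 433.5 and 58.9 on its own scale, with a fold of -7.36.

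Among the 1266 genes whose heterozygous signal was within 1.2-fold of that of Wif1, Wif1 included, 5 were under the floor in the homozygous pool, or 0.395%, and the median homozygous signal was 504.1. Wif1 was chosen with earlier results of these data known, so this share is no measure of how unusual its fall is. The whole value of Wif1 rests on 1 probe set, since the annotation gives the gene no other, and its suffix marks a probe set that detects several transcripts of the gene. Where the probes lie in the transcript was not analysed here. In pooled tissue, fewer cells that express Wif1 and less Wif1 RNA per cell cannot be told apart.

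The genes closest to Wif1 in mean log2 signal and log2 difference over the 2 pools, without the floor, were Sp6, Galnt5 and Zap70, at distances of 0.40, 0.43 and 0.45 log2 units. Sp6, a zinc finger transcription factor, went from 310.1 to 48.6. Galnt5, an enzyme that starts mucin-type glycosylation, went from 478.4 to 90.9, and Zap70, a kinase of the T cell receptor pathway, from 462.4 to 55.5. All 3 were, like Wif1, under the floor in the homozygous pool and each was measured by 1 probe set.

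**Figure D2:**
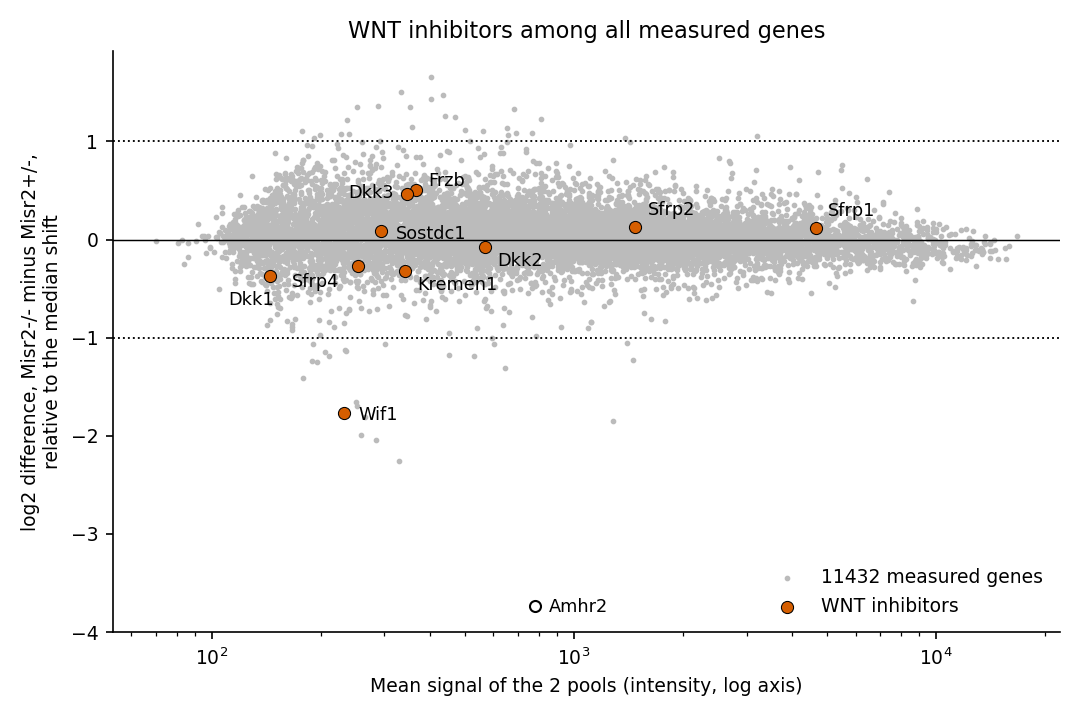
The log2 difference between the pools relative to the median shift (vertical axis, homozygous minus heterozygous, floored signals) against the mean signal of the 2 pools (log axis) for 11432 measured genes in grey, with the WNT inhibitors in orange and Amhr2 as an open circle. Dotted lines mark 2-fold, and Wif1, at -1.77, is the one inhibitor beyond them.

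Markers of cell types that the ridges could hold are given beside Wif1, relative to the median shift unless stated. Of all measured genes 42.3% were below 0, 0.883% at least 1.5-fold lower and 0.219% at least 2-fold lower. For germ cells, 5 of 6 measured markers were below 0 and 3 were at least 2-fold lower. The summed signal of the list went from 1542.6 to 1131.1 in the homozygous pool, 0.61 times as high relative to the array medians. As deposited, 4 of the 6 were below 0 and the same 3 at least 1.5-fold lower. On that scaling 92.9% of all measured genes were above 0 and 0.341% at least 1.5-fold lower. For fetal Sertoli and Leydig cells, 7 of 9 markers with a probe set were measured and all 7 were below 0. Of these, 3 were past 1.5-fold and 0 past 2-fold. Their summed signal was 1773.5 and 1526.8, 0.72 times as high relative to the array medians. As deposited, 5 of the 7 were below 0 and 0 were at least 1.5-fold lower. Amh, which defines fetal Sertoli cells, had signals of 19 and 5.5, under both floors. Among bone and cartilage markers, listed because Wif1 is known from the skeleton, 3 of 9 were measured and all 3 were below 0, with Sp7 at least 2.35-fold lower. The defining cartilage gene Col2a1 was under the floor at 7.9 and 69.8, as was the bone matrix gene Ibsp at 28 and 28.9. For the fetal ovary, 4 of 5 measured markers were below 0, with a median of -0.15, none was 1.5-fold different and Foxl2, which defines granulosa cells, was at 0.42. For ridge mesenchyme, 6 of 10 measured markers were below 0, and 7 were above 0 as deposited. Amhr2 and Osr1 were at least 2-fold lower, Osr1 going from 304.4 to 165.4, and Hoxa11 was 1.75-fold higher. Amhr2, the targeted gene, counts among those below 0. Its fall follows from the genotype and gives no information on the amount of mesenchyme. For macrophages, 6 of 7 measured markers were below 0, with Cx3cr1 1.83-fold lower, and 5 were above 0 as deposited. The part of these cell types in the Wif1 difference was not tested.

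The sex of the embryos in each pool is not given in the labels, so sex-linked transcripts were looked up after the members' values were seen. The Y-linked genes Eif2s3y, Kdm5d and Uty were measured in both pools, with differences of 0.10, 0.17 and 0.38, and the lowest probe sets of Kdm5d and Uty were at -0.34 and -0.22. The brightest probe set of Xist, the transcript of the inactive X chromosome, had signals of 61.5 and 121.4, under both floors. The Y-linked values turn negative against the hybridisation spikes, control transcripts added to each sample before hybridisation. The part of the sex makeup of the pools in the Wif1 difference was not tested.

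The upstream sequences of Wif1 and Frzb, the members with the largest difference in each direction, are shown to give the DNA next to their transcription starts. RefSeq sequences on build GRCm38.p6 were matched for 5 of the 10 members, Wif1, Sfrp2, Frzb, Dkk1 and Dkk2. The 250 bases before the start of Wif1 lie at chr10:121033754-121034003 on the plus strand, and those of Frzb at chr2:80447397-80447646 on the minus strand. Capitals mark the GC box GGGCGG, on either strand, the core of sites bound by SP family zinc finger proteins.
Wif1: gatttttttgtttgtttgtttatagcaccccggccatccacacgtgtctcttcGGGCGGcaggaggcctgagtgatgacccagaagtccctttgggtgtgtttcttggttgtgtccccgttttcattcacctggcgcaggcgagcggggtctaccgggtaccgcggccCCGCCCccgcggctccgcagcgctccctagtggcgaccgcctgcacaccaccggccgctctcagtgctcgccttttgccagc
Frzb: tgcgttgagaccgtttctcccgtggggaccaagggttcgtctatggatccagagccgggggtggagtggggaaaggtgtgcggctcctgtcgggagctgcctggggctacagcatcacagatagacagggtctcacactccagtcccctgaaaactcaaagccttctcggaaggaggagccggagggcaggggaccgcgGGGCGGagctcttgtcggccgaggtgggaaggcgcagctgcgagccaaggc

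The Wif1 sequence holds 2 GC boxes, 1 on each strand, at 197 to 192 and 82 to 77 bases before the start, and 21 CpG dinucleotides in 62.8% G and C. The Frzb sequence holds 1 GC box, at 51 to 46 bases before the start, and 16 CpG dinucleotides in 64.4% G and C. Of all 32851 upstream sequences of this length, 32.7% hold a GC box. Neither sequence holds the TCF/LEF motif CTTTGAA or CTTTGTT, found in 9.17% of all sequences, or the GC-rich SMAD motif GGCGCC, found in 9.59%, on either strand. Among the 5 matched members, Dkk1 alone holds these TCF/LEF letters, once as CTTTGAA and once as CTTTGTT. Other forms of the motif were not searched. The motifs were searched on both strands and do not overlap each other in these sequences. A match or its absence describes these letters in this window only.

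The secreted frizzled-related genes had values within 1.5-fold relative to the median shift. Sfrp1, on chromosome 8, encodes a WNT-binding protein with a frizzled-like domain. Its brightest probe set went from 4054 (heterozygous) to 5249.6 (homozygous), a difference of 0.11. Sfrp2, a close relative on chromosome 3, had signals of 1283.9 and 1674 and a difference of 0.12. Both were far above the floor in each pool, and both differences are smaller than the scatter between probe sets of a gene.

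The 5 probe sets of Sfrp1 did not give the same direction. Probe set 1448395_at went from 3220.7 to 3522.1 (difference -0.13), and 1460187_at from 2927.2 to 3601.1 (0.04). Probe set 1438620_x_at, whose suffix marks probes that may detect other transcripts, went from 1052.2 to 1436.9 (0.19). Furthest from 0 was 1416594_at, which went from 1233.4 to 704.8 and was 2.09-fold lower in the homozygous pool, a difference of -1.07. As deposited, 1416594_at was the only probe set of the 5 that was lower in the homozygous pool. It is the other member probe set that the authors' deposited table lists, with a fold of -2.117. These are 2 of 16 measured member probe sets at least 2-fold lower, where 0.248% of all measured probe sets were.

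The annotation ties 1416594_at to the same expressed sequence as 1448395_at and 1460187_at. Across the array, 190 genes had 5 measured probe sets, their differences spanned a median of 0.53 log2 units, and 9 of them (4.74%) spanned at least the 1.26 of Sfrp1, itself included. Which part of the Sfrp1 transcript each probe set detects was not analysed here.

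Sfrp4, on chromosome 13, had signals of 255.3 and 253.5 in its 1 probe set. The signals were almost equal as deposited, and relative to the median shift the difference was -0.27. Frzb (also called Sfrp3), on chromosome 2, first described as an inhibitor of WNT signalling in cartilage and in the frog embryo, went from 271.9 to 461.8. Its difference of 0.51, or 1.42-fold, was the highest of the 10 members, and 3.43% of measured genes were higher. The second Frzb probe set had signals of 67.4 and 87.9, under both floors, and adds no measurement.

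The Dickkopf genes differed among themselves. Dkk1, on chromosome 19, encodes an inhibitor that binds LRP5 and LRP6, and it was dim, with a heterozygous signal of 150.2 and a homozygous signal of 138.9. The second signal lies just under the floor of 139.4, so that Dkk1 was at least 1.29-fold lower, and the signals of its other probe set, 25.9 and 16.5, were under both floors. Dkk2, on chromosome 3, an LRP-binding relative that can activate or inhibit the pathway, had signals of 531.6 and 604.5 and a difference of -0.07.

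Dkk3, on chromosome 7, a divergent member of the family that is not a typical LRP-binding inhibitor, had probe sets that disagreed. Probe set 1448669_at went from 261.4 to 431.3, a difference of 0.46, whereas 1417312_at went from 250.1 to 241.4, a difference of -0.31. A gap of at least this size, 0.77 log2 units, occurred in 3.10% of the 3099 genes with 2 measured probe sets, whose median gap was 0.20. No direction is therefore given for Dkk3.

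Kremen1, on chromosome 11, encodes the membrane receptor that DKK1 uses to remove LRP6 from the cell surface. Its measured probe set had signals of 349.4 and 335.2, a difference of -0.32, and its other probe sets, at 59.8 to 71.4, reached neither floor. Sostdc1, on chromosome 12, encodes a secreted protein that inhibits both BMP and WNT signalling. Its brighter probe set went from 259.1 to 329.6, a difference of 0.09, and its dimmer one from 134 to 111.1, under the floor in the homozygous pool and at least 1.15-fold lower. Of the 3 members with more than 1 measured probe set, Sfrp1, Dkk3 and Sostdc1, all had probe sets on both sides of 0.

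The differences of several members depend on how the arrays are scaled to each other. As deposited, without removal of the median shift of 0.26, 6 members were above and 4 below 0, where 92.9% of all measured genes were above 0. Dkk2 turned positive at 0.19. Scaling to the 18 hybridisation spike probe sets moves all differences down by 0.40. On it 2 members were above and 8 below 0, where 6.25% of all measured genes were above 0. Sfrp1 (-0.29), Sfrp2 (-0.28) and Sostdc1 (-0.32) turned negative. The scaling also decides which members besides Wif1 pass 1.5-fold. As deposited, Frzb (1.70-fold) and Dkk3 (1.65-fold) were at least 1.5-fold higher, where 10.1% of all measured genes were, and Wif1 was the 1 member at least 1.5-fold lower, where 0.341% were. Against the spikes, Dkk1 (at least 1.71-fold), Kremen1 (1.65-fold) and Sfrp4 (1.59-fold) joined Wif1 at 1.5-fold lower, where 12.6% of all measured genes were, and 0 members were 1.5-fold higher, where 0.254% were. Wif1, Sfrp4, Dkk1 and Kremen1 were below 0 and Frzb and Dkk3 were above 0 in every alternative that gave a value for them. For Dkk3 this holds although its 2 measured probe sets disagree in direction. Some of these values were near 0. Sfrp4 (-0.01), Kremen1 (-0.06) and Dkk1 (-0.11) as deposited, and Frzb (0.10) and Dkk3 (0.06) against the spikes, were within the probe-set scatter of 0.23. Apart from Dkk3, each of these genes has 1 measured probe set, so the median of probe sets leaves it unchanged.

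**Figure D3:**
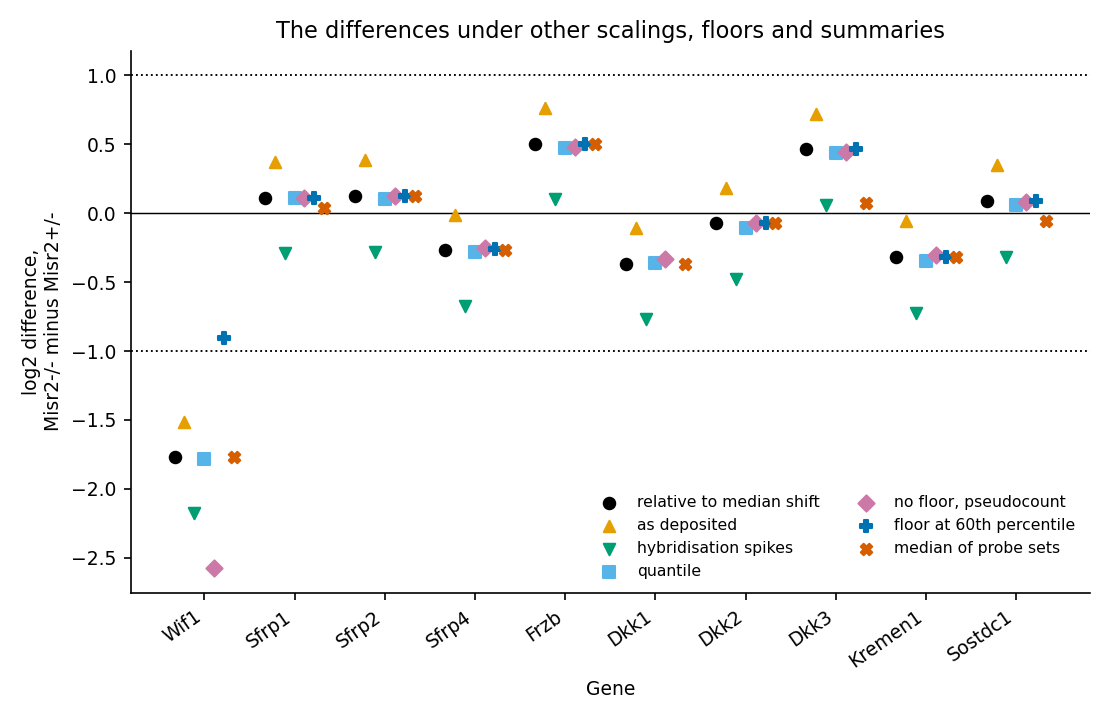
The log2 difference of each member (vertical axis, homozygous minus heterozygous pool) relative to the median shift (black) and under 6 of the alternatives, with dotted lines at 2-fold. Wif1 stays below 0 throughout and lies between -1 and 0 when the floor is the 60th percentile. The scalings as deposited and to the spikes move all members, Wif1 included, up or down together.

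In 6 further lists of WNT pathway genes, 0 of 63 measured genes were at least 1.5-fold lower relative to the median shift, a share near the 0.883% of all measured genes. Those at least 1.5-fold higher, where 2.08% of all measured genes were, numbered 3 of 10 other inhibitors, 1 of 10 ligands, 1 of 15 receptors and co-receptors, 1 of 4 R-spondins and their receptors, 0 of 14 genes of signal transduction and secretion, and 2 of 10 readout genes. The list medians were 0.05, -0.13, 0.09, -0.24, 0.06 and 0.23 in the same order, beside 0.04 over all measured genes. The positive medians turn negative against the spikes and the negative ones turn positive as deposited. Over all measured genes the median was -0.37 against the spikes and 0.29 as deposited. The counts move with the scaling too. Against the spikes 11 of the 63 were at least 1.5-fold lower, where 12.6% of all measured genes were. On that scaling 2, Fzd10 and Nkd2, were at least 1.5-fold higher, where 0.254% were. As deposited 0 were lower and 14 higher, where 0.341% and 10.1% of all measured genes were. All these counts take each gene at its brightest probe set. Relative to the median shift, dimmer probe sets of Ccnd1 (-0.79), Ror1 (-0.74) and Gsk3b (-0.71) were more than 1.5-fold lower. Dimmer probe sets of Apcdd1 and Tpbg, both counted as higher, reached 1.60 and 0.74.

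The 10 other measured inhibitors act outside the cell or at its surface, and 5 were above and 5 below 0. Apcdd1, a membrane glycoprotein that binds WNT ligands and LRP5, went from 4541.7 to 8359, and its 5 measured probe sets had differences of 0.49 to 1.60. Notum, a secreted enzyme that removes the lipid from WNT ligands, went from 777.1 to 1438 (0.63). Tpbg, a membrane protein that inhibits the pathway at LRP6 in zebrafish, went from 1103.7 to 2069.6, and its 3 measured probe sets ran from 0.32 to 0.74. These 3 were higher in the homozygous pool, and stay above 0 but within 1.5-fold against the spikes. Dkk4, Dkkl1, Sost, Cer1 and Draxin were under the floor in both pools, and Sfrp5, the fifth frizzled-related gene, had a difference of -0.01.

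Among the proteins that the inhibitors act on, Wnt7a, a ligand made by Müllerian epithelium, went from 444 to 832.9 (0.65), with its other probe set at 0.22. Fzd10, a Frizzled receptor, went from 172.4 to 412.4 in its 1 measured probe set, just under 2-fold. Lgr5, a receptor for R-spondins, went from 283.8 to 521.9 (0.62), whereas Rspo1, Rspo3 and Lgr4 were between -0.26 and -0.23, and turn positive as deposited. The co-receptors bound by the Dickkopf proteins, looked up after the values were seen, differed little, with Lrp5 at 0.07 and Lrp6 at 0.09. In the signal transduction list the largest differences were those of Gsk3a, a kinase that marks beta-catenin for breakdown, at 0.34, and Porcn, which adds the lipid to WNT ligands, at 0.30. These 4 values turn negative against the spikes.

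Of 10 measured readout genes of canonical signalling 7 were above 0, where 57.7% of all measured genes were. Against the spikes 4 were above 0, where 6.25% of all measured genes were. Among the 7, Ccnd1 was at 0.05 in its brightest probe set and at -0.79 in a dimmer probe set. Nkd2, a feedback inhibitor inside the cell, went from 390.6 to 995.1 (1.09), although its 4 measured probe sets ran from 0.01 to 1.09. Tnfrsf19, a membrane receptor induced by WNT signals, went from 1083.6 to 1970.8 (0.60), with 3 measured probe sets from -0.10 to 0.60. Of 11 measured duct epithelium markers 9 were above 0, 1 (Wnt7a, also among the ligands) was at least 1.5-fold higher and Gata3 was at -0.53, with a summed signal that went from 13677.6 (heterozygous) to 19041.3 (homozygous), 1.16 times as high relative to the array medians, although the list's median of 0.24 turns to -0.17 against the spikes. Their part in the values of the WNT genes was not tested.

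**Figure D4:**
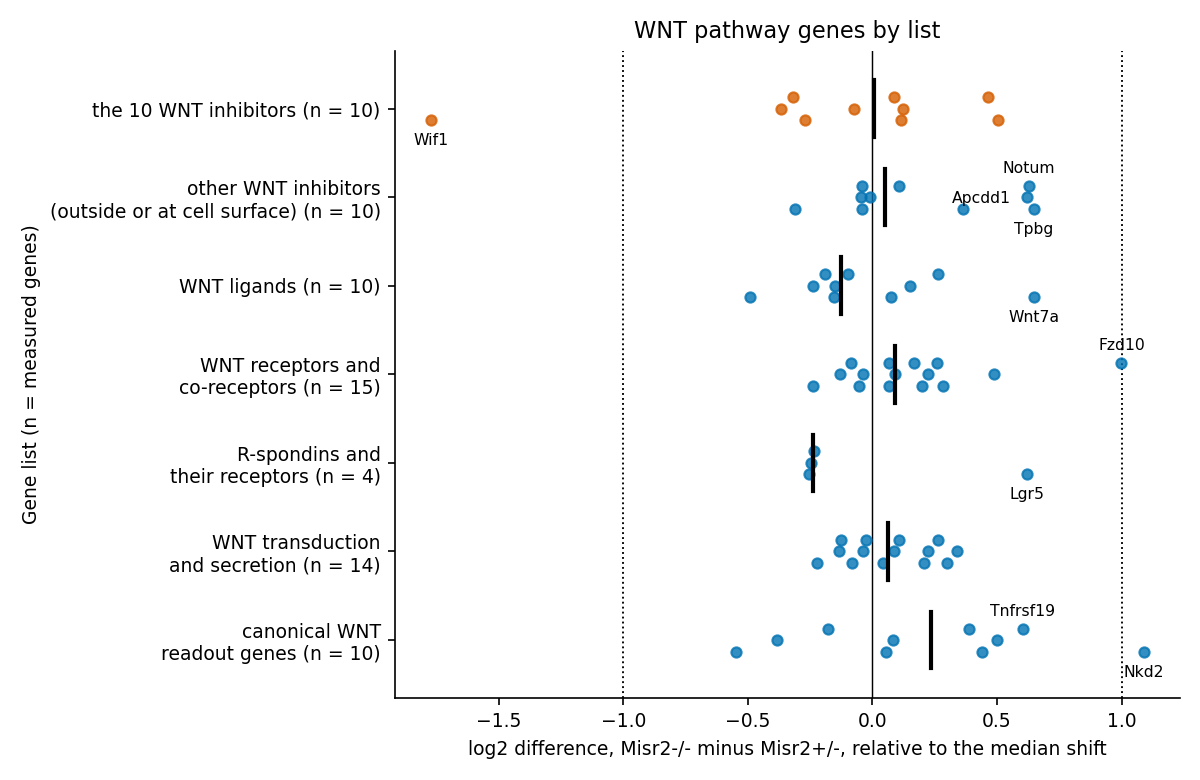
Log2 difference between the pools relative to the median shift (horizontal axis) for the 10 WNT inhibitors (orange) and for the measured genes of 6 further WNT lists (blue), with the median of each list as a black bar and names for genes at least 1.5-fold different. On this scaling, and with each gene shown by its brightest probe set, Wif1 is the only named gene on the left. The 8 named genes of the other lists are on the right.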

How the data were processed

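The authors deposited a linear intensity for every probe set on each array. The submitters' processing notes name GCOS and MAS5, with no version or role. The scaling of the intensity values was not given in the sources used here, and detection calls were not used. The authors' deposited table lists 739 probe sets with 2 intensities and a signed fold, treated as a score, of 2.0 or more in size, and its filter was likewise not given. Its intensities equalled those of the value table multiplied by 0.901 (homozygous) and 1.09 (heterozygous), to rounding.

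Groups were taken from the genotype labels. Control probe sets (64 of 45101) were left out. Of the rest, 34945 had 1 gene symbol in the platform annotation, 932 several and 9160 none listed, and those with several were given no gene name. The 10 members matched RefSeq (GRCm38.p6) by Entrez identifier, used for chromosomes. Differences were computed with Python 3.11.15 and numpy 2.4.6, with 2-fold and 1.5-fold as thresholds, and the procedure was tested on simulated data. The simulation changed only probe sets well above the floor, with less scatter than seen between probe sets here. It therefore does not cover a signal under the floor such as that of Wif1. Named were all members, Amhr2, the genes of each WNT list at least 1.5-fold different (otherwise the 2 with the largest difference) and the 3 genes closest to Wif1. The members and lists were chosen with earlier results of these data known. The number of arrays limits the precision, and no p-values are given.

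Alternatives were scalings (as deposited, 75th percentile, quantile, loess, spikes, the authors' constants), other floors (40th, 60th or 75th percentile), a pseudocount of 16 in place of a floor, the median of probe sets, leaving out probe sets whose suffix marks shared or several transcripts, and thresholds of 1.5-fold and 3-fold. The counts of members and WNT genes past 1.5-fold as deposited and against the spikes were added after the data were seen.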

Additional observations from a re-analysis of the deposited data

How the results depend on the processing

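Wif1 was lower in the homozygous pool in all 10 alternatives that measured it. These all start from the same 2 signals of 1 probe set, so they are not independent measurements. The median of probe sets leaves Wif1 unchanged by construction. Its log2 difference was -1.51 as deposited, -2.18 against the hybridisation spikes, -2.57 with the floor at the 40th percentile or with no floor and a pseudocount of 16, and -0.90, within 2-fold, when the 60th percentile was the floor. As its homozygous signal is under these floors, its bound moves with the floor by construction. With a floor at the 75th percentile, or without probe sets marked as shared or detecting several transcripts, Wif1 was not measured. The number of members at least 2-fold lower was therefore 0 in these settings and for the 60th percentile, and 1 in the others. The number at least 2-fold higher was 0 in all of them. The median of probe sets moved Dkk3 from 0.46 to 0.08 and turned Sostdc1 to -0.06, and the floor at the 75th percentile, which left 3 members measured, turned Dkk2 to 0.02. No paired analysis was possible because each pool was 1 array.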
